A study of Caenorhabditis briggsae with 16 samples.

Results

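Mir-788 is a miRNA hairpin of *C. briggsae* whose arms were both sequenced at high depth, and whose 3p and 5p* strands rose and fell at different hours of larval development. Its members are the 4 rows of the count table whose name starts with Cbr-Mir-788-, out of 372 rows in all. The rows Cbr-Mir-788-v1_3p and Cbr-Mir-788-v2_3p, and likewise Cbr-Mir-788-v1_5p* and Cbr-Mir-788-v2_5p*, carry the v1 and v2 marks that MirGeneDB, the source of the names, gives to variants of 1 hairpin. The 5p* rows held the same counts in all 16 libraries, and the 3p rows differed in 4 libraries by 5 reads in all, against 697898 reads in the v1 row. Each pair was therefore counted once, as the v1 row, which leaves 2 distinct strands.

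The samples were whole, untreated wild-type animals of strain AF16, grown at 25°C from synchronized L1 larvae and collected every hour from 18 to 33 h after plating. Each hour is 1 library of pooled animals, plated at 2000 to a plate, so no hour has a replicate and an interval given for an hour covers counting error only. Larval stages are not given for these libraries, and in whole animals a smaller number of expressing cells and a smaller amount of miRNA per cell cannot be told apart.

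A miRNA gene is transcribed as a primary transcript, from which Drosha and then Dicer cut a short duplex. The strand of the duplex that is kept in an Argonaute protein, the guide, pairs with target mRNAs through its seed and is usually long-lived. The other strand, the passenger or miR*, is usually lost quickly, so that its level is often read as a proxy for production. In *C. elegans*, the study took up miR-788 as a miRNA whose late larval decline raised the question of regulated decay. It reported that the guide of miR-788, but not the passenger, was stabilized in an *ebax-1* mutant. EBAX-1 is the nematode relative of the ubiquitin ligase receptor ZSWIM8, which acts in target-directed miRNA degradation. The *C. briggsae* course shows how the strands of the same hairpin behaved in a related species over a window that ended at 33 h.

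The 32 h library was the shallowest, with 9588599 counts in total, and the 19 h library the deepest, with 15866144. A normalized count is the count divided by its library's total and scaled to the mean total, 12480503, so all levels are relative to the miRNAs sequenced in that hour. The 21 h library stood apart from its neighbours. Over the 254 arms that averaged at least 100 counts, its median absolute distance from the mean of the neighbouring hours was 0.25 (log2), against 0.07 to 0.16 for the other libraries from 19 to 32 h. In that library 76.9% of all counts fell on 3p arms, against 67.5% to 75.1% in the others. This share also rose late in the course, from 70.0% at 25 h to 74.4% at 30 h and 75.1% at 33 h. The part of this library-wide balance in the values of Mir-788, at 21 h or in the late hours, was not tested. The values that the 21 h library moves most are also given without it, a comparison chosen after seeing the data.

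The 3p strand was the more abundant strand in every library and passed through 2 separate peaks, each followed by a decline. From 18 to 22 h, Cbr-Mir-788-v1_3p had in turn 35134, 33631, 73551, 117197 and 65633 normalized counts. From 23 to 27 h the values were 40356, 33821, 34809, 56403 and 58492. From 28 h to the end they were 39227, 27579, 21825, 19435, 17430 and 16265. The strand was thus high at 20 to 22 h and again at 26 and 27 h, low at 18, 19 and 23 to 25 h, and lowest at the end. Ordered by level, the hours 18 and 25 h did not differ beyond counting error (ratio 1.01, 95% interval 0.995 to 1.02), nor did 24 and 19 h (ratio 1.01, 95% interval 0.992 to 1.02). All other neighbours in that order differed beyond counting error, which is small for such deep counts. Variation between cultures was not measured.

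**Figure D1:**
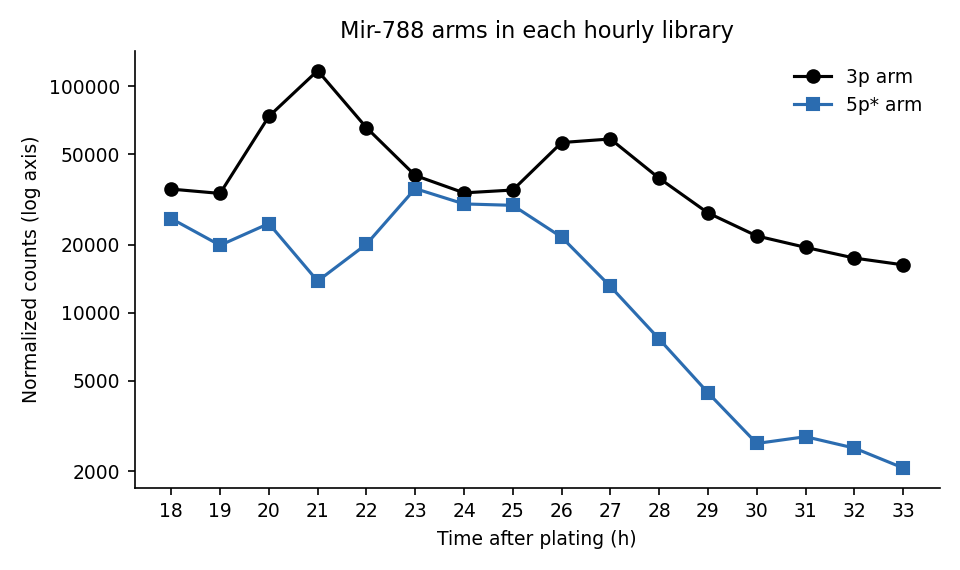
Normalized counts (log axis) of the 3p arm (black circles) and the 5p* arm (blue squares) of Mir-788 against hours after plating, 1 library per point. The 3p arm peaks at 21 h (117197) and 27 h (58492), while the 5p* arm has its low point of the early hours at 21 h (13793) and falls from 29792 at 25 h to 2647 at 30 h.

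The 5p* strand was not a trace product. From 18 to 22 h, Cbr-Mir-788-v1_5p* had in turn 26028, 19848, 24759, 13793 and 20067 normalized counts. It reached 35312 at 23 h, followed by 30221, 29792, 21559 and 13059 over the hours up to 27 h. From 28 h to the end the values were 7649, 4433, 2647, 2835, 2525 and 2063. The strand was therefore high at 23 to 25 h, where the 3p strand was low, and all values from 28 h onwards lay below all earlier ones. Neighbours in the order of levels that did not differ beyond counting error were 24 and 25 h, 22 and 19 h, and 30 and 32 h.

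By mean level over the course, the 3p strand was number 42 and the 5p* strand number 75 among the 356 arms left when the v2 rows are dropped. At 21 h the 3p strand was number 20. Between 18 and 33 h the 3p strand moved from number 41 to number 73 and the 5p* strand from number 50 to number 120. Taken over the whole course, the 5p* strand made up 27.1% of the mean level of the hairpin. In 83 hairpins with a mean count of at least 100 on each arm, the less abundant arm had a median of 6.96%, and 15 hairpins, Mir-788 included, had a share at least as high.

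The label under which Mir-788 was picked out, a stepwise late larval fall, described the values only in part. The 3p strand did not step down from plateau to plateau. It was 2.9-fold lower at 23 h than at 21 h (95% interval 2.87 to 2.94 from the counts), rose again by a factor of 1.68 from 25 to 27 h (95% interval 1.66 to 1.7), and was 3.6-fold lower at 33 h than at 27 h (95% interval 3.53 to 3.66). The 5p* strand became 13.3-fold lower between 23 and 30 h (95% interval 12.8 to 13.9), with no hourly rise, and was lower by a further factor of 1.28 at 33 h. From 18 to 33 h the 3p strand was 2.16-fold lower (95% interval 2.12 to 2.2) and the 5p* strand 12.6-fold lower (95% interval 12 to 13.2). No other of the 244 arms that averaged at least 100 counts and carry no v2 mark was as much lower at 33 h than at 18 h as the 5p* strand. The 3p strand was number 48 by this measure. The median of these arms changed by -0.21 (log2) between these hours.

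A straight line through all hours gave a slope of -0.103 per h on the log2 scale for the 3p strand (standard error 0.022) and of -0.28 per h for the 5p* strand (standard error 0.044), from edgeR's quasi-likelihood fit with cosine and sine terms at 7 h, the period of the study's model. The median slope over the 296 tested arms with no v2 mark was -0.03 per h. The slope of the 5p* strand was the second steepest fall among them, and that of the 3p strand was number 45. Both strands were among the arms that edgeR called falling, as were 41.5% of all 311 arms tested. In all, 129 arms were called falling and 84 rising with the library total as scale, and 108 and 110 with median-of-ratios factors, under which the slopes of the 3p and 5p* strands were -0.079 and -0.255 per h. Since Mir-788 was picked with its fall in view, these slopes are a description and no test is given for them. They also depend on the late hours. From 18 to 29 h only, the slope was -0.072 per h for the 3p strand (standard error 0.038) and -0.108 per h for the 5p* strand (standard error 0.046).

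The rise of the 3p strand from 19 to 21 h was steep. Over these 2 hours it rose by a factor of 3.48 (95% interval 3.45 to 3.52), of which 2.19 came from 19 to 20 h, before the 21 h library. The step from 19 to 20 h, 1.13 on the log2 scale, was exceeded by only 2 of the 244 arms, whose median was 0.09. From 20 to 21 h the strand rose by a further factor of 1.59, number 22 among the 244 arms. The high level did not rest on the 21 h library. The strand was 2.17-fold more abundant at 20 h than at 24 h (95% interval 2.15 to 2.2), and 1.94-fold more abundant at 22 h than at 24 h (95% interval 1.92 to 1.96).

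The following decline took 3 hours. The 3p strand was lower by a factor of 1.79 from 21 to 22 h, of 1.63 from 22 to 23 h and of 1.19 from 23 to 24 h. On the log2 scale these steps were -0.84, -0.7 and -0.25, against medians over the 244 arms of 0.11, 0.07 and 0.03. Read as pure loss with no production, the drop between 21 and 22 h is a rate of 0.58 per h (half-life 72 min), and the drop between 22 and 23 h a rate of 0.486 per h (half-life 86 min). These rates are changes in a share of the library, and any production during the hour would make the rate of loss higher.

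The decline after 27 h was fastest in its first 3 hours. The log2 steps of the 3p strand were -0.58 to 28 h, -0.51 to 29 h, -0.34 to 30 h, -0.17 to 31 h, -0.16 to 32 h and -0.1 to 33 h. With production at 0 these are half-lives of 104 min for the step to 28 h, 118 min for the step to 29 h and 178 min for the step to 30 h, and of 601 min for the last step. The strand therefore lost most of its level within 3 hours of its second peak. The intervals of the loss in the steps to 31 and 32 h overlapped, at 0.0945 to 0.137 and 0.0861 to 0.132 per h.

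The 5p* strand lost counts at a nearly even rate from 26 to 30 h. Its log2 steps were -0.47 to 26 h, -0.72 to 27 h, -0.77 to 28 h, -0.79 to 29 h and -0.74 to 30 h, with 0.1 to 31 h. From 25 to 30 h it became 11.3-fold lower (95% interval 10.8 to 11.8), a loss of 0.484 per h and a half-life of 86 min if production is set to 0. Only 3 of the 244 arms fell further over these hours, and their median changed by -0.32. In the earlier part of the course this strand dropped 1.8-fold from 20 to 21 h (95% interval 1.76 to 1.83) and rose by a factor of 2.56 from 21 to 23 h (95% interval 2.51 to 2.61). Without the 21 h library there is no low point at 21 h, and the strand stood at 24759 at 20 h, 20067 at 22 h and 35312 at 23 h.

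**Figure D2:**
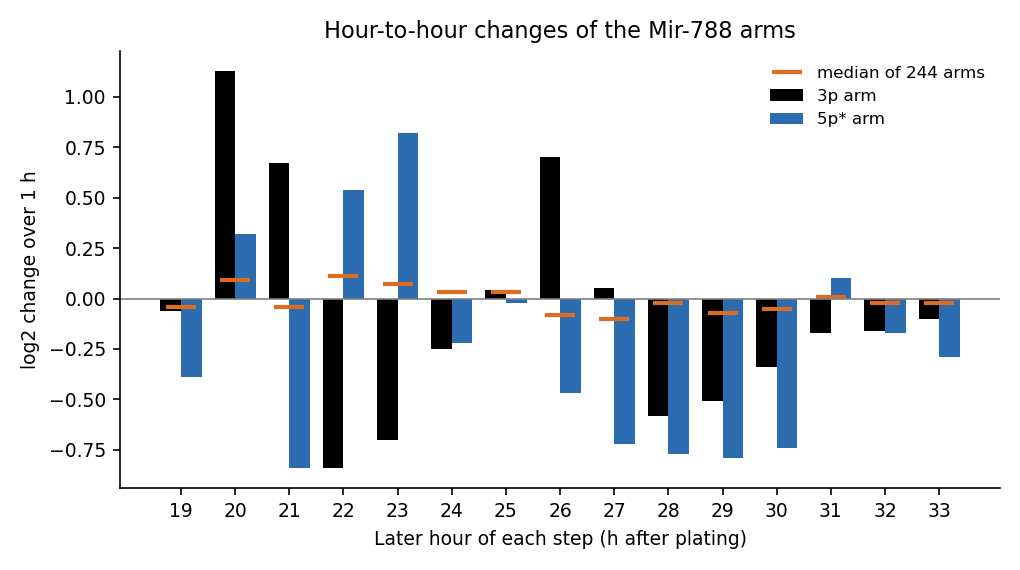
Change over 1 hour (log2 of the ratio of library shares) of the 3p arm (black bars) and the 5p* arm (blue bars), placed at the later hour, with the median of the 244 arms that averaged at least 100 counts (orange dashes). From 20 to 21 h, 21 to 23 h and 25 to 27 h the bars of the arms point in opposite directions, and from 27 to 30 h both point down.

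The local peaks of the strands did not coincide. With a peak taken as a local maximum that stands at least 0.5 (log2) above its surroundings, the first and last hour left out, the 3p strand had peaks at 21 h and 27 h and a trough at 24 h. The 5p* strand had a trough at 21 h and a peak at 23 h. The peaks of the 3p strand were 6 h apart, and the 5p* peak lay between them. Among the 244 arms, 28 had at least 2 peaks, 21 had a peak at 21 h and 9 had a peak at 27 h. Only 5 arms had both, among them Cbr-Mir-788-v1_3p. The others, named after their values were seen, were Cbr-Let-7-P8_3p*, Cbr-Mir-36-o22_3p, Cbr-Mir-36-o24_3p and Cbr-Mir-86_3p*, all of them 3p arms. Without the 21 h library, the peaks of the 3p strand were at 20 and 27 h and its trough at 24 h, and the 5p* strand kept its peak at 23 h and had no trough. Then 16 of the 244 arms had a peak at 20 h and 2 arms had peaks at both 20 and 27 h.

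The cosine and sine terms at 7 h describe how wave-like each strand was. The amplitude, the distance from the middle of the fitted wave to its top on the log2 scale, was 0.62 for the 3p strand (standard error 0.15), with fitted crests at 20.8 and 27.8 h. It was 0.52 when the 21 h library was left out. The amplitude of the 5p* strand was 0.31 (standard error 0.29) with a straight trend, 0.57 (standard error 0.14) with a quadratic trend and 0.67 (standard error 0.22) for 18 to 29 h only. The hairpin was picked with its peaks and the ratio of its arms in view, so the same hours cannot test these waves or the ratio. Adjusted p values for them appear only in the last section, to show how the fits depend on the settings. Over all 311 arms, edgeR called 7.4% rhythmic at 7 h.

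The balance between the strands swung from near equality to a large 3p excess and back, and then to a 3p excess again. The ratio of 3p to 5p* counts within a library does not depend on how libraries are scaled. From 18 to 22 h it was in turn 1.35, 1.69, 2.97, 8.5 and 3.27. At 23, 24 and 25 h it was 1.14, 1.12 and 1.17, and the strands were nearly equal in abundance. Over the next 5 hours it rose through 2.62, 4.48, 5.13 and 6.22 to 8.24 at 30 h, and the last 3 values were 6.86, 6.9 and 7.88. The widest 95% interval of these ratios, exact from the counts, was 7.5 to 8.29 at 33 h. The hours of near equality thus differed from those of 3p excess by far more than counting error. Variation between cultures or library preparations is not covered by these intervals.

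**Figure D3:**
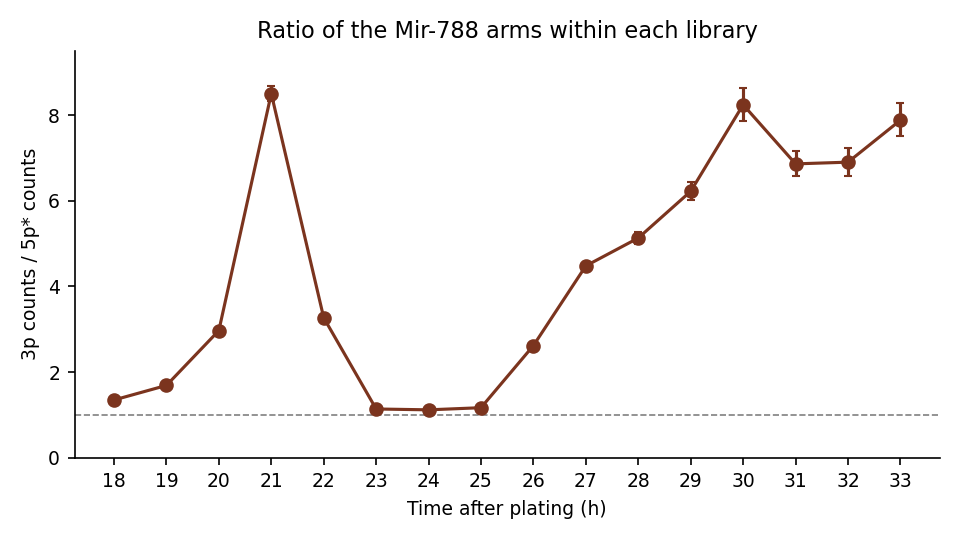
Ratio of 3p to 5p* counts of Mir-788 in each hourly library, with exact 95% intervals of counting error as bars; the dashed line marks equal counts. The ratio is 8.5 at 21 h, between 1.12 and 1.17 at 23 to 25 h, and between 6.86 and 8.24 at 30 to 33 h.

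As a share of both strands, the 5p* strand ranged from 10.5% at 21 h (95% interval 10.3% to 10.7%, Clopper-Pearson) to 47.2% at 24 h (95% interval 46.8% to 47.5%). The sum of the strands peaked with the 3p strand at 130990 normalized counts in the 21 h library. From 23 to 27 h it stayed between 64042 and 77962, while the ratio of the strands rose from 1.14 to 4.48. It had declined to 24473 by 30 h and 18329 by 33 h.

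The strands moved in opposite directions in 6 of the 9 hourly steps between 18 and 27 h, where the median of the 83 hairpins was 3 and 12 hairpins, Mir-788 included, had at least 6. Over all 15 steps they moved oppositely in 7, both down in 7 and both up in 1. The step from 24 to 25 h is within counting error for the 5p* strand. Without the 21 h library, 4 of 8 steps between 18 and 27 h were opposite, and 32 of the 83 hairpins had at least as many. The range of the log2 ratio between 18 and 27 h was 2.92, against a median of 1.19, and 7 of the 83 hairpins had a range as wide. With that library left out it was 2.0, against a median of 1.03, and 16 hairpins had a range as wide.

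Over the whole course the log2 ratio had a slope of 0.168 per h towards the 3p strand (standard error 0.036). This is the arm by time term of an edgeR fit with the library as a block, which called 30.7% of the 127 hairpins rising. With v2 hairpins dropped, only 1 of the 120 hairpins had a steeper rise, and the median slope was 0.012 per h. This slope depended on the late hours. From 18 to 29 h only it was 0.04 per h (standard error 0.036), although within that window the ratio rose from 1.17 at 25 h to 6.22 at 29 h. The 7 h wave in the ratio had an amplitude of 0.79 over all 16 hours (standard error 0.24) and of 1.24 for 18 to 29 h only (standard error 0.17). edgeR called 17.3% of the 127 hairpins rhythmic in their ratio over all hours and 21.3% in the shorter window. Without the 21 h library the slope of the ratio was 0.185 per h over the other 15 hours, and the amplitude was 0.59 over these hours and 1.06 in the shorter window.

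Other hairpins shifted in part in the same direction. With each hairpin centred on its own mean log2 ratio, the median of the 82 other hairpins stood at 0.31 at 21 h and 0.19 at 22 h, and between -0.18 and 0.09 at all other hours. For Mir-788 the value was 1.32 in the 21 h library, -1.6 at 24 h and 1.27 at 30 h. At 24 h no other hairpin lay as low, and at 21 h 7 others lay as high. At 30 h 3 others did. After the median of all hairpins was subtracted in each hour, a step chosen after seeing the data, the slope of the Mir-788 ratio was 0.158 per h (standard error 0.034, from limma).

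The study's model of constant decay asks whether the level of a guide can follow from its passenger alone. Guide is made in proportion to the measured passenger and lost at 1 fixed rate, and 3 values (the rate, the proportion and the starting level) are fitted by least squares. In *C. elegans* the study modelled the 5p strand of miR-788 as the guide. In *C. briggsae* the 3p strand was the more abundant one and the names of the rows mark the 5p strand as passenger. In the study's trials on synthetic data, the model performed well where the passenger was short-lived and several times less stable than the guide. Whether the 5p* strand meets this condition was not tested, and it nearly equalled the 3p strand from 23 to 25 h. With the 3p strand as guide and the 5p* strand as passenger, the best fit had a loss of 0.173 per h, a half-life of 4.01 h, and accounted for 29% of the variance of the 3p strand over the 16 hours. The median over 120 hairpins was 70.2%, and 17 hairpins, Mir-788 included, were fitted no better. The fitted curve passed through 51635 normalized counts at 21 h and 49524 at 24 h, so that the measured level was 2.27 times the fitted one at 21 h and 0.683 times at 24 h. It was 1.27 times the fitted level at 27 h and 0.688 times at 30 h. The curve therefore lay below both 3p peaks and above the values before, between and after them. The share accounted for was 55.4% when the fit was made to log2 values and 6.29% for 18 to 29 h only. In that shorter window the best fit itself gave production from the passenger a weight of 0, so the 5p* course added nothing to it. Without the 21 h library it was 46.8%, against a median of 78.2% over the 120 hairpins, and 23 hairpins were fitted no better. With the strands exchanged, the 5p* strand as guide, the fit accounted for 46.5% of the variance of the 5p* strand, which is not the same measure.

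**Figure D4:**
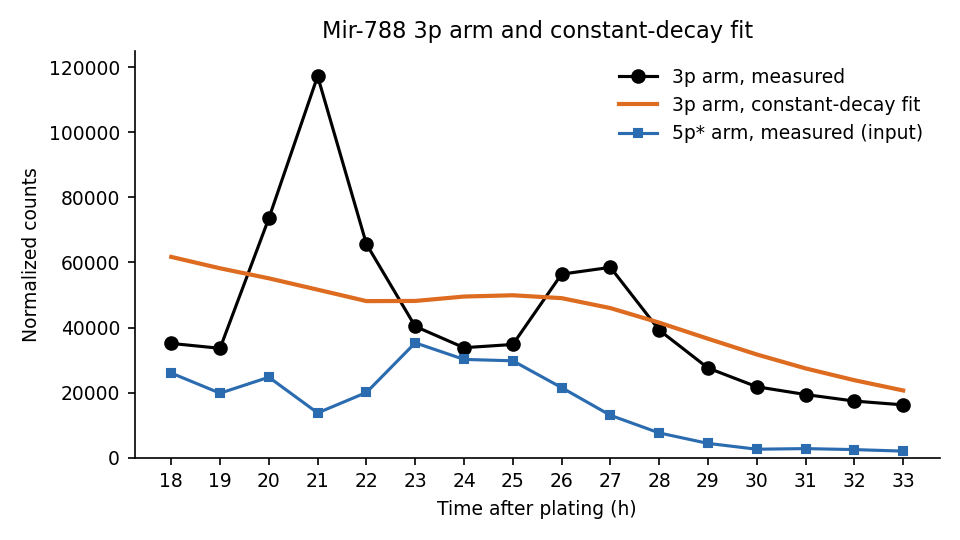
Measured normalized counts of the 3p arm (black circles) and of the 5p* arm (blue squares, the input of the model) with the best constant-decay fit of the 3p arm (orange line) against hours after plating. At 21 h the measured value is 2.27 times the fitted one, and at 24 h 0.683 times.

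The arms with the most similar course were found by the root mean square difference of mean-centred log2 levels over the 16 hours, among 242 other arms. The 3p strand was nearest to Cbr-Let-7-P8_3p* (difference 0.39), Cbr-Mir-52-P1_3p* (0.4), Cbr-Mir-86_3p* (0.42), Cbr-Mir-9-P16_3p* (0.42) and Cbr-Mir-9-P16_5p (0.43), where the median arm was at 0.79. Let-7 is a family of conserved miRNAs with members that time larval development in *C. elegans*. The normalized counts of Cbr-Let-7-P8_3p* at 18, 21, 24, 27 and 33 h were 64597, 99619, 43974, 65486 and 34709. Those of Cbr-Mir-52-P1_3p* at the same hours were 85763, 145286, 81336, 102593 and 25011. Both had more counts at 21 and 27 h than at 24 h, as the Mir-788 3p strand did, although Cbr-Mir-52-P1_3p* was lowest of these middle hours at 23 h and highest again at 26 h. When the 21 h library was left out, 4 of these 5 arms were still among the 5 nearest, Cbr-Mir-52-P1_3p* not being among them. All arms come from the same libraries and share their depth and arm balance.

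**Figure D5:**
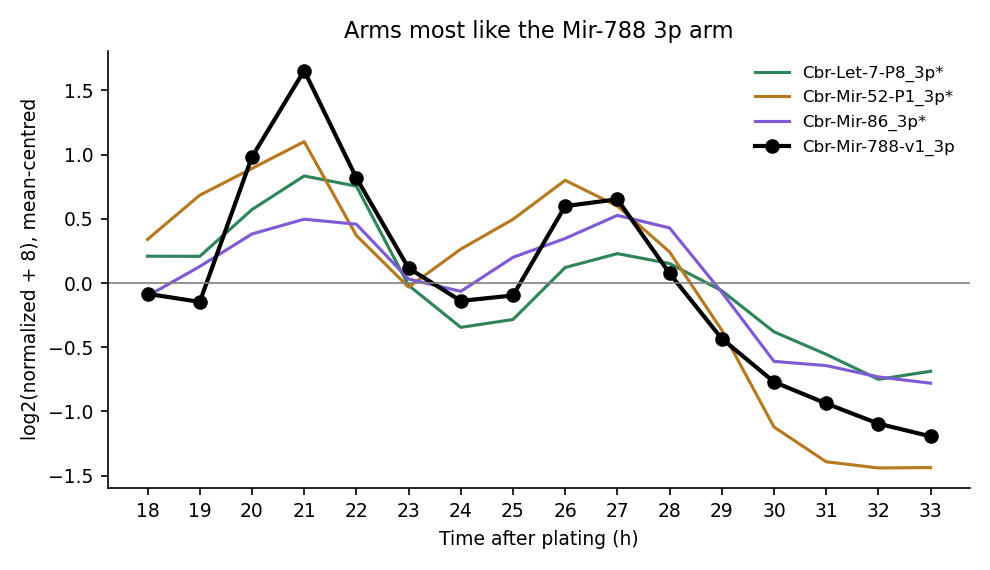
Mean-centred log2(normalized count + 8) of Cbr-Mir-788-v1_3p (black circles) and of the 3 arms nearest to it, Cbr-Let-7-P8_3p* (green), Cbr-Mir-52-P1_3p* (ochre) and Cbr-Mir-86_3p* (purple), against hours after plating. All 4 have high values around 21 h and 26 to 27 h and are lower at 33 h than at 28 h.

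No arm lay as near to the 5p* strand. Its nearest were Cbr-Mir-36-o25_5p* (difference 0.64), Cbr-Mir-279-o10_3p (0.7), Cbr-Mir-2-o4_5p* (0.7), Cbr-Mir-2222-P1a_3p (0.75) and Cbr-Mir-279-o7_5p* (0.81), against a median of 1.34, and the same 5 were nearest when the 21 h library was left out. These arms were far less abundant. Cbr-Mir-36-o25_5p* had 382, 260, 609, 200 and 95 normalized counts at 18, 21, 24, 27 and 33 h, with the same low value at 21 h and high value at 24 h. The 3p strand of Mir-788 itself differed from its 5p* strand by 1.08.

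In *C. elegans* the study linked the decay of further miRNAs to EBAX-1, of which relatives of miR-235, miR-71 and the miR-35 family are described here. Over all 311 arms, edgeR called 129 falling, 84 rising and 23 rhythmic at 7 h. Of the Mir-92 rows, the relatives of *C. elegans* miR-235, edgeR called 1 of 2 3p arms and 1 of 2 5p arms rising with time and none falling, and 1 of the 5p arms rhythmic at 7 h. Neither 3p arm was called rhythmic, with amplitudes of 0.56 (standard error 0.19) and 0.43 (standard error 0.16). The study describes the profiles of both these 3p guides as rhythmic in this course, from plotted levels and with no test stated. The calls here rest on adjusted p at a period of 7 h, which the study's model fixed for *C. elegans*, so the measures are unlike. Both arms of Mir-71 were called rhythmic at 7 h, and neither was called rising or falling, with slopes of -0.01 per h for the 3p arm and 0.02 per h for the 5p arm. Of the Mir-36 rows, relatives of the embryonic miR-35 family, 28 3p arms were tested, of which 5 were called rising and 2 falling. Of the 12 tested 5p arms of Mir-36, 7 were called rising and 4 falling. The slope of the Mir-788 5p* strand, -0.28 per h, lay below the range of the Mir-36 5p arms, whose slopes ran from -0.2 to 0.38 per h.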

How the data were processed

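For the counts, the authors trimmed 3′ adapters, mapped reads with QuasR and Bowtie (versions not given in the sources used here) and counted sense reads starting within 3 bp of the 5′ end of each MirGeneDB arm. Reads were allowed up to 100 hits, so near-identical arms can share them. The Methods name assembly WS225, the submitters' processing notes ce10. The authors also deposited log2 values of the scaled counts plus 8, which were recomputed to within 0.0005. Total counts per library were 9588599 to 15866144, which makes counting intervals narrow. Intervals are exact 95% intervals of counting error and nothing else, as reads carry no molecular identifiers.

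The hour of each library came from its label. The 311 arms that reached 10 counts in 8 or more libraries were fitted with edgeR 4.0.16 (glmQLFit, glmQLFTest, R 4.3.3), with the library total as library size and linear, cosine and sine terms at 7 h. The ratio of the arms was fitted over 127 hairpins with a library block. P-values were Benjamini-Hochberg adjusted, at a threshold of 0.05, and serve here to count calls over all arms. Those of the Mir-788 rhythms serve only to show how the fits depend on the settings. Neighbouring hours are not independent, which these fits do not take into account. Alternatives used TMM and median-of-ratios factors, DESeq2 1.42.0, limma 3.58.1, other periods, trends and filters, and each hour left out. The decay model searched loss rates between 0.001 and 100 per h. The scripts were tested on simulated data. The members, lists and tests were chosen with earlier results of these data known. The named arms are the Mir-788 rows, the 5 arms nearest to each strand, and the Mir-92, Mir-71 and Mir-36 rows.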

Additional observations from a re-analysis of the deposited data

How the results depend on the processing

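The limits lie in the design: 1 library per hour, neighbouring hours that are not independent, and scaling by the library total. The fitted change of the median arm over the course was -0.44 (log2) with the total, -0.21 with TMM factors and -0.11 with median-of-ratios factors. The fit of the arm ratio paired the arms within each library, but the hours could not be paired because each hour is 1 library. The cause of the changes below was not tested. The hairpin was picked with these courses in view, so the adjusted p values printed below for its rhythms are not valid tests. They only show how the fits move with the settings. No conclusion is drawn from any of them, whether under 0.05 or not. The slope of the 3p strand (-0.103 per h) was -0.079 with median-of-ratios factors and with DESeq2, -0.072 for 18 to 29 h, -0.129 at a period of 6 h and -0.122 to -0.087 with each hour left out. That of the 5p* strand (-0.28) was -0.108 for 18 to 29 h and -0.32 to -0.258 with each hour left out. Adjusted p for the rhythm of the 3p strand (0.047 from edgeR) was 0.06 and 0.063 with limma at pseudocounts of 8 and 1, 0.054 with no low-count filter, 0.12 for 18 to 29 h, 0.068 at 6 h, 0.32 at 8 h, 0.21 without the trend term, and 0.026 to 0.12 over the fits that omit 1 hour, under 0.05 in the 4 of these 16 fits that omit 19, 26, 29 or 33 h. The amplitude of the 5p* strand (0.31) was 0.57 with a quadratic trend and 0.14 to 0.45 with each hour left out. The slope of the arm ratio (0.168) was 0.04 for 18 to 29 h, 0.071 for these hours without 21 h and 0.154 to 0.19 with each hour left out. Adjusted p for its rhythm (0.078) was 0.0036 for 18 to 29 h, 0.0096 for these hours without 21 h, 0.033 at 8 h and 0.061 to 0.19 with each hour left out. With TMM and median-of-ratios factors, the log2 changes of the 3p strand were 1.84 and 1.74 from 19 to 21 h (1.8 with the total), -1.98 and -1.89 from 21 to 24 h (-1.79), 0.92 and 0.93 from 25 to 27 h (0.75), and -1.71 and -1.62 from 27 to 33 h (-1.85). Those of the 5p* strand were 1.18 and 1.22 from 21 to 23 h (1.36) and -3.21 and -3.14 from 25 to 30 h (-3.49). At a prominence of 1 the 3p strand had 1 peak, and at 0.25 the 5p* strand had 2. Of the 311 arms, edgeR called 23 rhythmic, against 47 with DESeq2, 55 with a quadratic trend, 12 at 8 h, 3 at 6 h, 5 without the trend term and 14 without the 22 h library, and it called 129 falling, against 72 for 18 to 29 h. Of the 127 hairpins it called the ratio of 39 rising, against 16 for 18 to 29 h, and of 22 rhythmic, against 2 at 6 h. The constant-decay fit accounted for 55.4% of the variance of the 3p strand when fitted to log2 values, 6.29% for 18 to 29 h and 46.8% without 21 h. With the strands exchanged it accounted for 46.5% of the variance of the 5p* strand. The settings without 21 h and with the strands exchanged were added after seeing the data.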
